A study of Mus musculus with 46 samples.

Results

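Interferon-stimulated genes are the genes that a cell switches on when it senses an interferon. A list of 39 of them was followed by gene symbol through 46 mouse tumors, each sequenced as 1 library. All 39 were present in both deposited tables, among 56980 genes in the hSS2 table and 56941 in the hSS1 table. The list was given by gene symbol, as genes known to respond to interferon, and it was chosen with earlier results of these data known. The tumors modelled synovial sarcoma, a soft-tissue cancer driven by the SS18::SSX fusion. All mice carried a human fusion gene at Rosa26, either SS18::SSX2 (hSS2, titled SSM2 in the labels) or SS18::SSX1 (hSS1), which was switched on by injection of TATCre protein into a limb at 8 days of age. Tumors that expressed SS18::SSX2 alone (hSS2 control, 13 tumors) were compared with tumors whose mice also carried conditional knockout alleles of PBRM1 (Pbrm1-fl, 8 tumors), ARID1A (Arid1a-fl, 8) or ARID1B (Arid1b-fl, 8). In the hSS1 background 5 control tumors and 4 Pbrm1-fl tumors were sequenced. The same Cre protein starts the fusion and can remove the floxed exons, in whichever limb cells take it up. PBRM1 belongs to PBAF, one form of the BAF chromatin remodeling complex. The canonical form, CBAF, holds either ARID1A or ARID1B. The mice were of mixed strain, both sexes, 2 to 6 months old. Whole tumor tissue was measured, so a lower level of a gene can mean fewer cells of a type or less RNA per cell, which cannot be told apart.

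Type I interferons signal through the receptor chains IFNAR1 and IFNAR2 and the kinases JAK1 and TYK2. The complex ISGF3, which contains STAT2 and IRF9, then binds the interferon-stimulated response element (ISRE). Interferon gamma signals through its own receptor, and its response element is the gamma-activated site (GAS). Many of the induced genes encode antiviral proteins. Others, such as the RNA sensors, feed back on the pathway, and the chemokines CXCL9 and CXCL10 attract T cells. The genes were grouped by role as the OAS family, the IFIT, MX and other antiviral effectors, the ISG15 group, RNA sensors, transcription factors, ADP-ribosylation proteins, guanylate-binding proteins with chemokines, and others. The ISG15 group held the ubiquitin-like modifier Isg15, Usp18, and Trim25, Trim30a and Dtx3l, which were grouped as ligases.

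The promoters of these genes were searched for both elements in the RefSeq sequences of GRCm38.p6, from 250 bases before to 50 bases after each gene start. The letters searched were TTTC, any 2 bases and TTTC again for the ISRE, or on the other strand GAAA, any 2 bases and GAAA, and TTCNNNGAA for the GAS, which reads the same on both strands. Promoters of 29 of the 39 genes were found. An ISRE match was present in 15 of the 29 (51.7%), against 3.99% of all 27025 genes with a promoter there. A GAS match was present in 6 (20.7%), against 9.55% of all genes, and 3 genes held both. Those 3 were Oas1a, Bst2 and Eif2ak2, and in Bst2 the GAS letters overlap the first ISRE match. A match is a description of the letters and not evidence of binding. The stretches below were chosen because these genes carried the changes or the contrasts described further on. Isg15, Bst2, Ifit1, Rsad2 and Cxcl10 hold ISRE letters, Irf1 holds GAS letters, Cmpk2 holds neither, and Ifih1 holds its match within the transcribed part. Capitals mark the matched letters, and all sequences run 5′ to 3′ on the strand of the gene. The windows of Isg15, Bst2, Ifit1, Rsad2, Irf1 and Cmpk2 are the 150 bases before the start.
Isg15: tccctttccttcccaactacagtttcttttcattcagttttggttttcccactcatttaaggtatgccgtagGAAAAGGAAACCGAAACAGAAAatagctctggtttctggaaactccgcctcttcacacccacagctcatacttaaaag
Bst2: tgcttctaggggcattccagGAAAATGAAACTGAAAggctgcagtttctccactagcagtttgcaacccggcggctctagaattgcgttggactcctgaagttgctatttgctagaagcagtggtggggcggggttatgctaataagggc
Ifit1: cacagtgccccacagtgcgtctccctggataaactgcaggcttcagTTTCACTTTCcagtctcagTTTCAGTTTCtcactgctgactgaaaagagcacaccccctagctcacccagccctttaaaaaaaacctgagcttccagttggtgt
Rsad2: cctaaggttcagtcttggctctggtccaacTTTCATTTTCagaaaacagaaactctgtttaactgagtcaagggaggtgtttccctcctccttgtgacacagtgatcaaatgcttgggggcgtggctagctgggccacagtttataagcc
Cxcl10: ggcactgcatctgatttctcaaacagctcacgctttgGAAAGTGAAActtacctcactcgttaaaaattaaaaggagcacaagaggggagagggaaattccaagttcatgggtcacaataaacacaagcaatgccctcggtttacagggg
Irf1: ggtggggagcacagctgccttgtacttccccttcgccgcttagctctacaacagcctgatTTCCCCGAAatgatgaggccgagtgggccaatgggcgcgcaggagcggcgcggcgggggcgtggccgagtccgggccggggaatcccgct
Cmpk2: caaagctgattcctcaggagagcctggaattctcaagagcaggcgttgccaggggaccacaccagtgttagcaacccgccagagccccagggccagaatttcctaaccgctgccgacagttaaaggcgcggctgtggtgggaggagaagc
Ifih1: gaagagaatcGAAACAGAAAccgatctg
In genome order these are chr4:156200819-156200968 on the minus strand for Isg15, chr8:71537473-71537622 on the minus strand for Bst2, chr19:34640739-34640888 on the plus strand for Ifit1 and chr12:26456453-26456602 on the minus strand for Rsad2. The Cxcl10 window, chr5:92348990-92349139 on the minus strand, covers the bases from 250 to 101 before the start. Irf1 is at chr11:53769864-53770013 on the plus strand, Cmpk2 at chr12:26469065-26469214 on the plus strand and Ifih1 at chr2:62646206-62646233 on the minus strand. Counted from the start, the first ISRE match began at -78 in Isg15, -130 in Bst2, -104 in Ifit1, -120 in Rsad2 and -213 in Cxcl10, and at 33 after the start in Ifih1. Isg15 had 3 overlapping matches and Bst2 and Ifit1 had 2 each.

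Library totals ranged from 10613976 to 21294657 counted reads in the hSS2 table and from 10137668 to 14130024 in the hSS1 table. Pbrm1 was lower in hSS2 Pbrm1-fl tumors, at 95.0 to 139 CPM (read counts scaled to library size) against 171 to 316 in controls (log2 fold change -1.27, adjusted p = 4.2e-12 with edgeR). Arid1a was lower in Arid1a-fl tumors (log2 fold change -0.95, adjusted p = 7.0e-05), while Arid1b in Arid1b-fl tumors did not pass (-0.80, adjusted p = 0.145). In hSS1 Pbrm1-fl tumors Pbrm1 was 102 to 252 CPM against 275 to 373, without overlap, and did not pass (-0.75, adjusted p = 0.193). The authors reported a smaller loss of Pbrm1 in hSS1 than in hSS2 tumors. They proposed selection in hSS1 for cells that recombined only 1 floxed allele, which was not tested here. The library labelled hSS2 control replicate 9 went against its label, since its Arid1a level of 238 CPM lay within the Arid1a-fl range of 229 to 276. Calls that changed without it are given beside each comparison. Without it 2 of the 39 genes were called in Arid1a-fl, the same 2 as with it, 0 in Arid1b-fl and 0 for the interaction of genotype and background. The same 31 genes were called with and without it for a change with Ptprc, a leukocyte gene, in hSS2. Tle1, a marker of synovial sarcoma, was found in every tumor, at 165 to 473 CPM in hSS2 and 198 to 421 CPM in hSS1, and Sox2 at 2.96 to 103 and 16.6 to 169 CPM. Skeletal muscle markers ranged from 0.794 to 35500.5 CPM between tumors. Mouse numbers in the titles fell into ranges, under 1000, from 1000 to below 2000, and from 2000 up, that coincided with genotype. All Pbrm1-fl mice of hSS2 were numbered 2000 or over and all Arid1a-fl mice under 1000, whereas the hSS2 controls spanned all 3 ranges (5, 4 and 4 tumors). The authors state that littermates served as controls, while the main hSS2 comparisons here pooled the controls of all 3 ranges.

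Among the hSS2 control tumors the members were expressed at very different levels. On the scale of RPKM, which divides CPM by the exon length in kilobases, Ifi35 (median 14.2), Isg15 (13.6), the RNA-activated kinase Eif2ak2 (12.9) and the membrane tether Bst2 (12.2) were highest. Oas3 (0.0918) and Oas2 (0.149), which make the oligoadenylate signal that activates RNase L, were lowest. The members varied together. Within genotype groups, each member's log2 level correlated with the mean of the other members at a median Pearson r of 0.83 over 37 hSS2 tumors (range 0.12 to 0.95) and 0.86 over 9 hSS1 tumors. With Ptprc, which encodes the pan-leukocyte protein CD45, the median r was 0.66 in hSS2 and 0.68 in hSS1. These values are descriptions across tumors that share libraries and depth. The map of all tumors shows this shared variation, and it also shows that a few tumors carry the highest values of nearly every member.

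**Figure D1:**
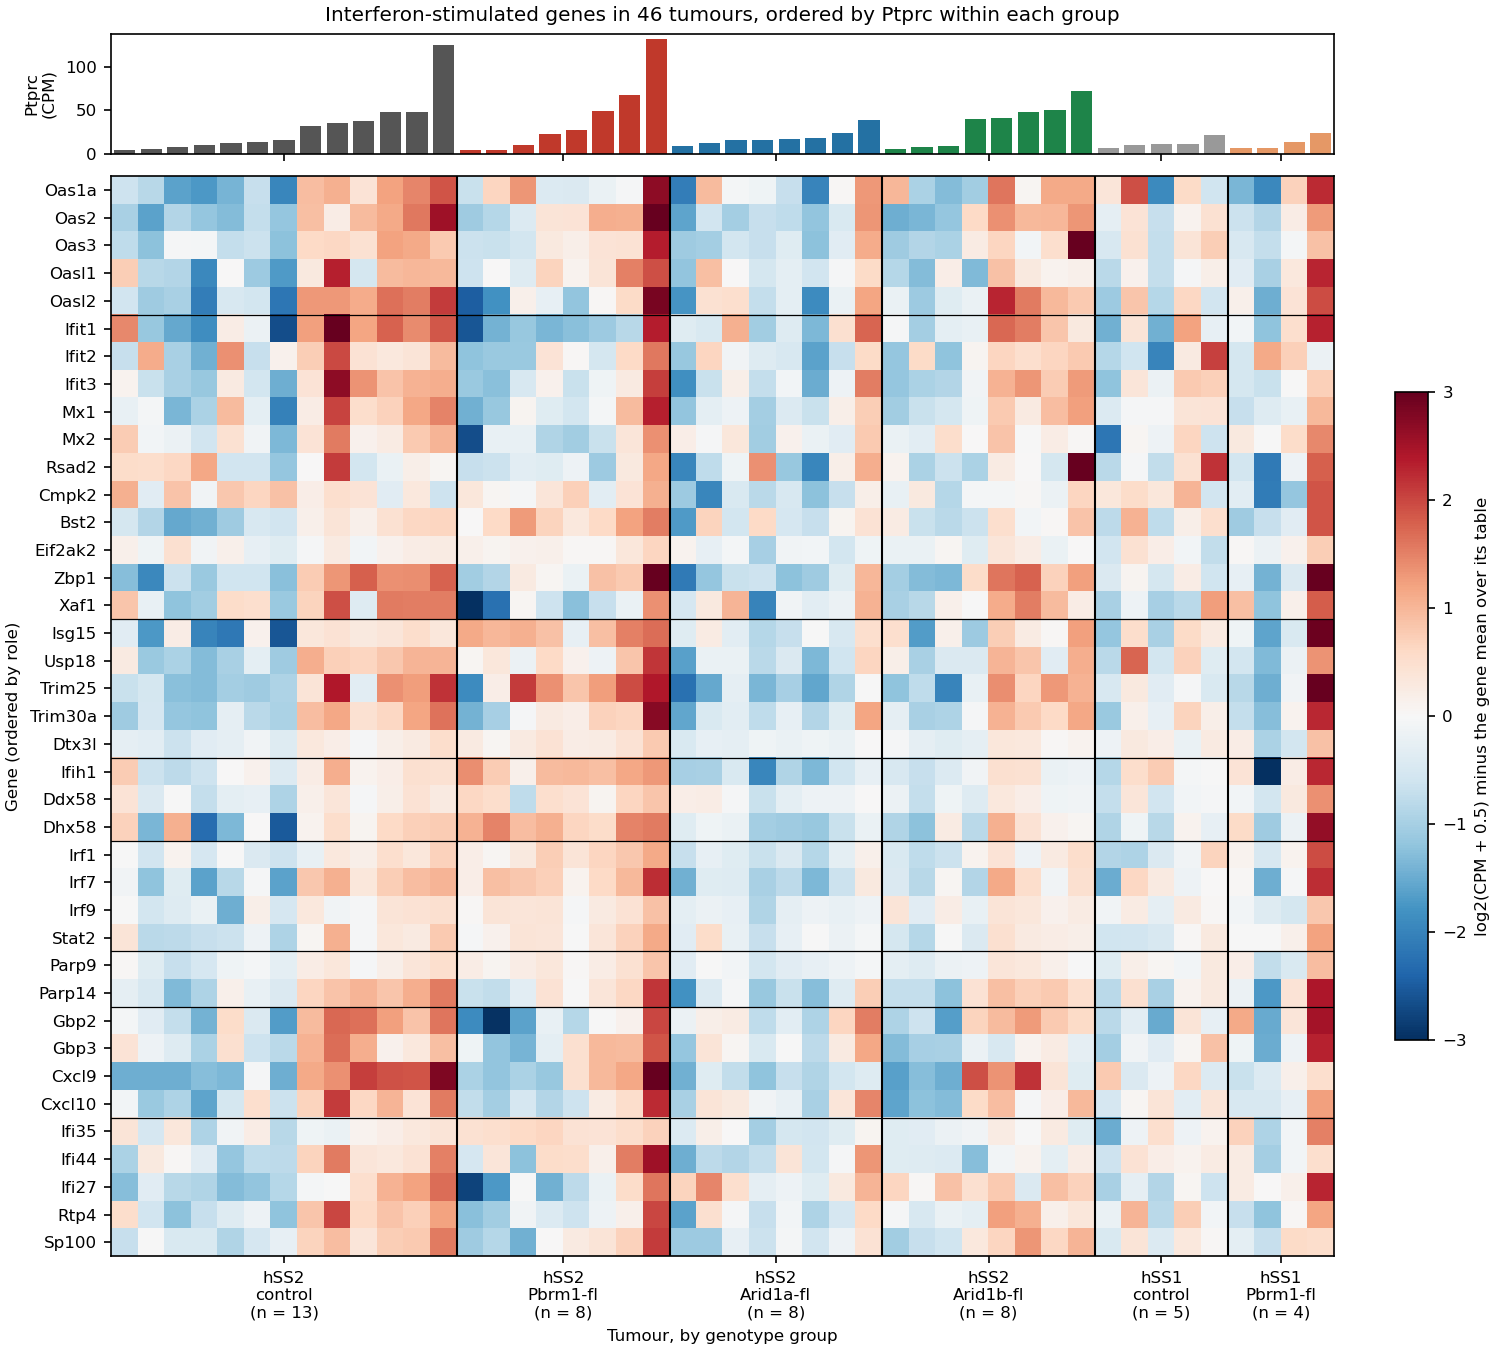
Each column is 1 of 46 tumors, ordered by Ptprc (bars above, CPM) within its genotype group, and each row is 1 of the 39 genes, ordered by role. Color gives log2(CPM + 0.5) minus the mean of that gene over its table, with hSS2 and hSS1 centered separately. The columns farthest right in hSS2 Pbrm1-fl (131 CPM of Ptprc) and in hSS1 Pbrm1-fl (24.1 CPM) are the highest of their groups for 38 and 37 of the 39 genes.

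Oasl2, of the OAS family, and the effector Ifit1 spread widely among tumors of the same group. Oasl2 had a median of 15.1 CPM in hSS2 controls (4.38 to 93.1), 19.9 in Pbrm1-fl (3.41 to 158), 18 in Arid1a-fl (5.43 to 48.8) and 27.7 in Arid1b-fl (9.78 to 106). Ifit1, which binds foreign RNA ends, had a median of 17.8 CPM in controls (0.760 to 65.7), 3 in Pbrm1-fl (0.853 to 40.5), 5.67 in Arid1a-fl (2.65 to 26.5) and 8.29 in Arid1b-fl (3.48 to 25.8). Both genes spanned overlapping ranges in all 4 groups. In hSS1, where values were scaled separately, Oasl2 read 27.7, 23.8, 6.86, 8.15 and 10.1 CPM in the 5 controls and 20.4, 5.25, 60.6 and 17.1 in the 4 Pbrm1-fl tumors. Ifit1 read 4.34, 7.97, 0.857, 0.858 and 2.59 CPM in the hSS1 controls and 4.75, 1.09, 17.7 and 2.97 in the Pbrm1-fl tumors. In both genes the third Pbrm1-fl tumor was the highest of all 9.

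Among the transcription factors, Stat2, part of ISGF3, had a median of 63.4 CPM in hSS2 controls (33.7 to 135), 83.3 in Pbrm1-fl (63.1 to 144), 56.3 in Arid1a-fl (39.8 to 95.3) and 69.2 in Arid1b-fl (35.6 to 91.3). Irf7, which amplifies type I interferon production, had a median of 13.6 CPM in controls (4.27 to 30), 24.0 in Pbrm1-fl (15 to 67.0), 8.39 in Arid1a-fl (4.86 to 17.2) and 13.8 in Arid1b-fl (7.36 to 31.6). Irf1 had a median of 30.7 CPM in controls (19.7 to 49.6), 44.4 in Pbrm1-fl (32.2 to 68.0), 23.2 in Arid1a-fl (16.8 to 34.4) and 30.2 in Arid1b-fl (17.9 to 44.7). For all 3 factors Pbrm1-fl had the highest and Arid1a-fl the lowest group median of hSS2, with overlapping ranges. In hSS1 the controls read 32.4, 50.4, 32.1, 34.9 and 59.5 CPM for Stat2, 12.8, 7.24, 2.57, 9.86 and 8.16 for Irf7 and 13.7, 24.6, 14.2, 19.4 and 42.2 for Irf1. The hSS1 Pbrm1-fl tumors read 54.1, 48.5, 113 and 48 CPM for Stat2, 7.97, 2.63, 39.4 and 8.36 for Irf7 and 28.4, 19, 105 and 28.6 for Irf1. The third tumor was again the highest.

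Gbp2, a guanylate-binding protein, had a median of 17.2 CPM in hSS2 controls (3.27 to 38.7), 7.93 in Pbrm1-fl (1.04 to 47.2), 11.6 in Arid1a-fl (5.77 to 34.1) and 17.9 in Arid1b-fl (3.29 to 28.5). The chemokine Cxcl10 had a median of 1.49 CPM in controls (0 to 5.95), 0.516 in Pbrm1-fl (0.245 to 6.62), 1.13 in Arid1a-fl (0.265 to 3.68) and 1.10 in Arid1b-fl (0 to 2.45). Its reads were few, so that the level of single tumors is imprecise. In hSS1 Gbp2 read 6.21, 10.5, 4.29, 2.43 and 6.52 CPM in controls and 10.3, 2.44, 46.3 and 18 in Pbrm1-fl, and Cxcl10 did not exceed 0.576 CPM in controls or 1.43 in Pbrm1-fl.

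In the ISG15 group, Trim25, the ubiquitin ligase that acts on the sensor RIG-I, had a median of 12.6 CPM in hSS2 controls (7.12 to 98.5), 46.2 in Pbrm1-fl (4.57 to 98.3), 7.88 in Arid1a-fl (3.46 to 18.3) and 22.2 in Arid1b-fl (4.27 to 48.6). In hSS1 it read 8.78, 7, 4.97, 5.57 and 5.09 CPM in controls and 6.65, 2.26, 79.8 and 3.77 in Pbrm1-fl, so that a single tumor stood far above the other 8. Isg15 and the effector Bst2 had medians of 6.77 CPM (4.59 to 12.7) and 13.6 CPM (4.46 to 25) in Arid1a-fl and of 10.1 CPM (2.40 to 21.3) and 15.3 CPM (8.65 to 28.7) in Arid1b-fl.

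Disruption of Pbrm1 in hSS2 tumors was compared with the hSS2 controls to ask which genes respond to loss of PBAF. Of the 39 genes, 5 rose and 0 fell (edgeR quasi-likelihood test, Benjamini-Hochberg adjusted p below 0.05 over all 20083 genes tested), while 7.35% of all genes tested were called, 3.4% higher and 3.95% lower. The 5 were the RNA sensor Ifih1, the ubiquitin-like modifier Isg15, the ubiquitin ligase Dtx3l, the membrane tether Bst2 and Ifi35. The median log2 fold change of the 39 was 0.38, against -0.00 over all genes, and 26 of 39 values were positive. All 39 had passed the filter on low counts. By role, 1 of 3 RNA sensors rose, 2 of 5 genes of the ISG15 group, 1 of 11 effectors, 1 of 5 others, and 0 of the OAS, transcription factor, ADP-ribosylation and chemokine groups.

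Ifih1 (ENSMUSG00000026896, GRCm38 chr2:62595798-62646255), which encodes MDA5, a sensor of long double-stranded RNA, measured 14.9, 28.4 and 55.8 CPM (lowest, median and highest) in the 13 controls and 29.3, 51.3 and 69.1 in the 8 Pbrm1-fl tumors. All 8 Pbrm1-fl tumors lay above the control median and 3 above every control. The log2 fold change was 0.83 ± 0.22 (SE), with an adjusted p of 0.015. Isg15 (ENSMUSG00000035692, chr4:156199424-156200818) measured 1.05, 10.3 and 12.9 CPM in controls and 7.29, 18.4 and 29 in Pbrm1-fl tumors. Of the 8 Pbrm1-fl tumors 7 exceeded every control. Its log2 fold change was 1.26 ± 0.38 (adjusted p = 0.034). Bst2 (ENSMUSG00000046718, chr8:71534255-71537456), which encodes tetherin, measured 5.08, 11 and 24.5 CPM in controls and 15.6, 24.5 and 46.1 in Pbrm1-fl tumors. Here 4 of 8 lay above every control, and the log2 fold change was 1.02 ± 0.30 (adjusted p = 0.032).

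Ifi35 (ENSMUSG00000010358, chr11:101448407-101458698) measured 11.8, 24.5 and 30.1 CPM in controls and 30.7, 32.8 and 37.2 in Pbrm1-fl tumors. It was the 1 gene of the 39 whose groups did not overlap, which 0.284% of all genes tested showed, although the margin was narrow and the Pbrm1-fl tumors lay close together. Its log2 fold change was 0.54 ± 0.16 (adjusted p = 0.027). Dtx3l (ENSMUSG00000049502, chr16:35926511-35939151), partner of PARP9, measured 38.2, 55.9 and 86.0 CPM in controls and 62.2, 72.3 and 104 in Pbrm1-fl tumors, with 1 of 8 above every control. Its log2 fold change was 0.39 ± 0.12 (adjusted p = 0.042). Dtx3l and Parp9 overlap on opposite strands, and whether reads were counted by strand was not stated. The sensor Dhx58 (1.02 ± 0.35, adjusted p = 0.065) and Irf1 (0.54 ± 0.18, adjusted p = 0.059) did not pass.

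**Figure D2:**
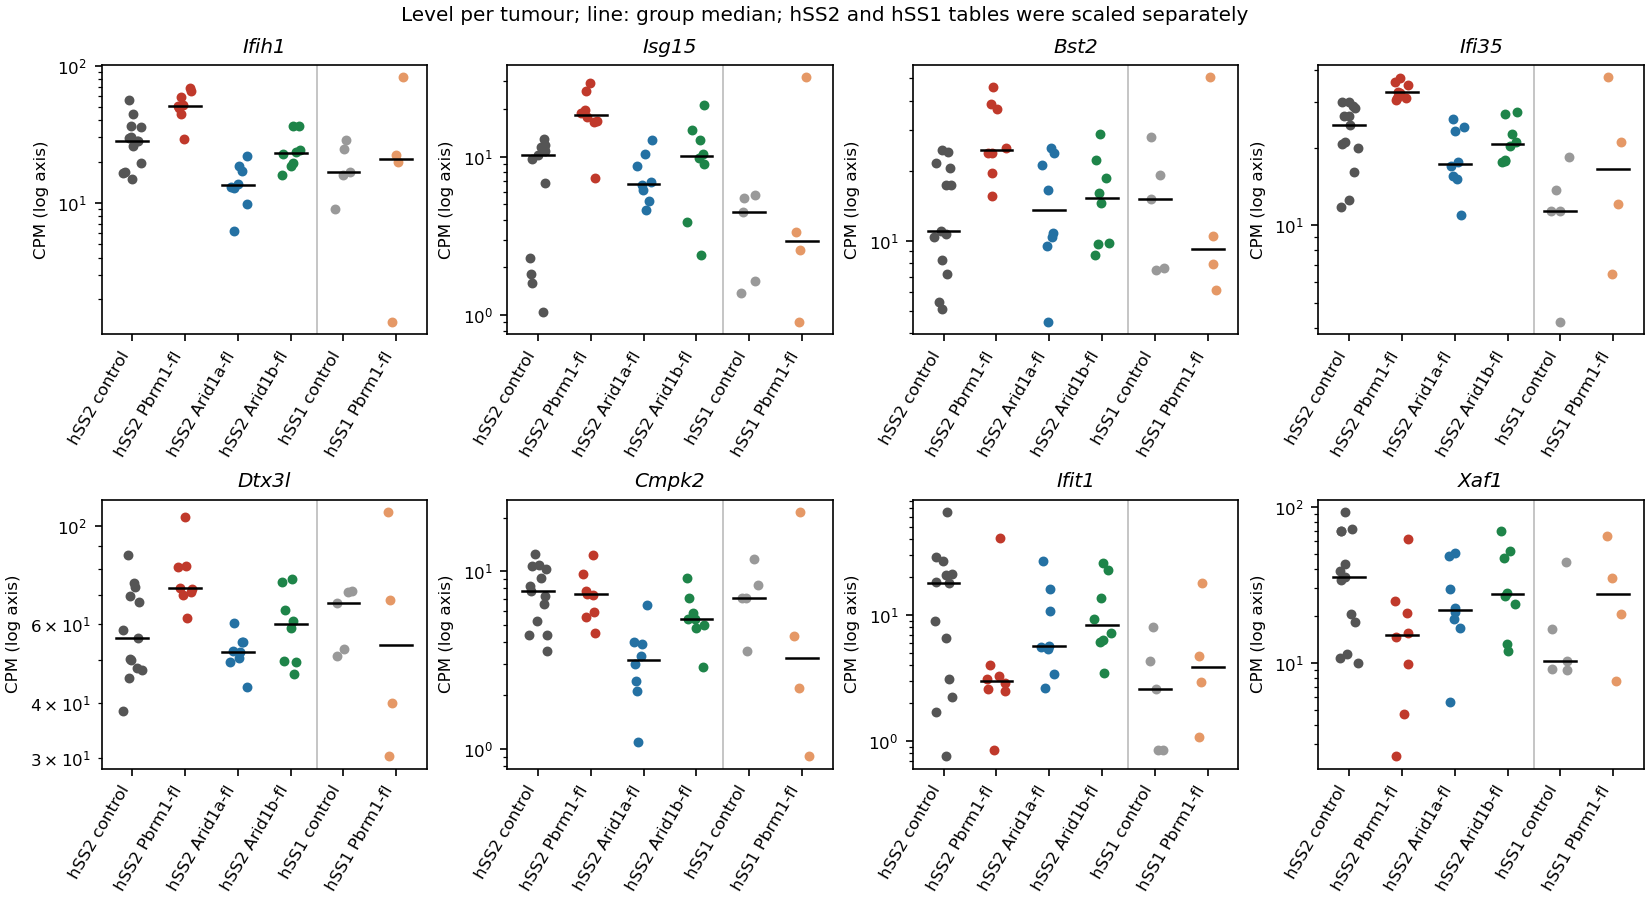
Points are single tumors and lines are group medians, in CPM on a log axis, for 8 of the genes in all 6 groups. Ifi35 shows separate hSS2 Pbrm1-fl and control ranges (30.7 to 37.2 against 11.8 to 30.1 CPM), and Ifit1 shows 1 hSS2 Pbrm1-fl tumor at 40.5 CPM with the other 7 at 0.853 to 3.99.

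Several effectors did not follow. Ifit1 lay below the control median in 7 of 8 Pbrm1-fl tumors (log2 fold change -1.21 ± 0.68, adjusted p = 0.294), and Xaf1, an interferon-induced promoter of apoptosis, did so in 7 of 8 as well (-1.07 ± 0.49, adjusted p = 0.185). Pbrm1-fl replicate 1 had the highest Ptprc of all 37 hSS2 tumors (131 CPM) and was the highest of its group for 38 of the 39 genes. Ptprc itself ranged from 3.83 to 125 CPM in controls, with a median of 16, and from 4.12 to 131 in Pbrm1-fl tumors, with a median of 25.3 (log2 fold change 0.37, adjusted p = 0.747). Without that tumor Ifih1 and Ifi35 still rose (0.77, adjusted p = 0.029, and 0.51, adjusted p = 0.044), and Ifit1 (-2.65, adjusted p = 0.0096) and Xaf1 (-1.61, adjusted p = 0.034) fell. With Ptprc as a covariate 11.3% of all genes were called, 5.09% higher and 6.17% lower, and of the 39 genes 8 rose, the 5 above with Dhx58, Irf1 and Parp9, and 3 fell, Ifit1 (-1.83, adjusted p = 0.030), Xaf1 (-1.36, adjusted p = 0.021) and Gbp2 (-1.27, adjusted p = 0.0090).

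The call for Ifih1 held under every alternative tried, and those for the other 4 genes did not. When the library labelled hSS2 control replicate 9 was left out, Ifih1 was the 1 gene called (0.79, adjusted p = 0.033), with Isg15 at 1.14 (adjusted p = 0.054), Bst2 at 0.94 (0.058), Ifi35 at 0.51 (0.054) and Dtx3l at 0.34 (0.092). Over the analyses with 1 tumor left out, 1044 to 1920 of all genes were called. Against the 4 controls of the same mouse number range Ifih1 was again the 1 gene called (1.26 ± 0.31, adjusted p = 0.021). In that analysis 477 of 20083 genes were called, so that 1 of 39 was near the share of all genes. There the differences of Isg15 (1.64), Bst2 (1.34), Ifi35 (0.67) and Dtx3l (0.50) were as large or larger, with adjusted p from 0.104 to 0.123, and Ifit1 was at -0.18 and Xaf1 at -0.40. Summed leukocyte markers, all 5 of them detected, had a median of 60.8 CPM in controls (24.7 to 309) and 100 in Pbrm1-fl (18.3 to 365), and 0 of the 5 passed. The tumor marker Sox2 was at -1.39 (adjusted p = 0.110) and Tle1 at -0.30 (adjusted p = 0.164), and the skeletal muscle markers had a median log2 fold change of -0.83, with 0 of 6 past the threshold. Summed, the muscle markers had a median of 2700 CPM in controls (2.69 to 35500.5) and 151 in Pbrm1-fl (2.87 to 11685). The part of other cells was not tested beyond the Ptprc covariate.

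**Figure D3:**
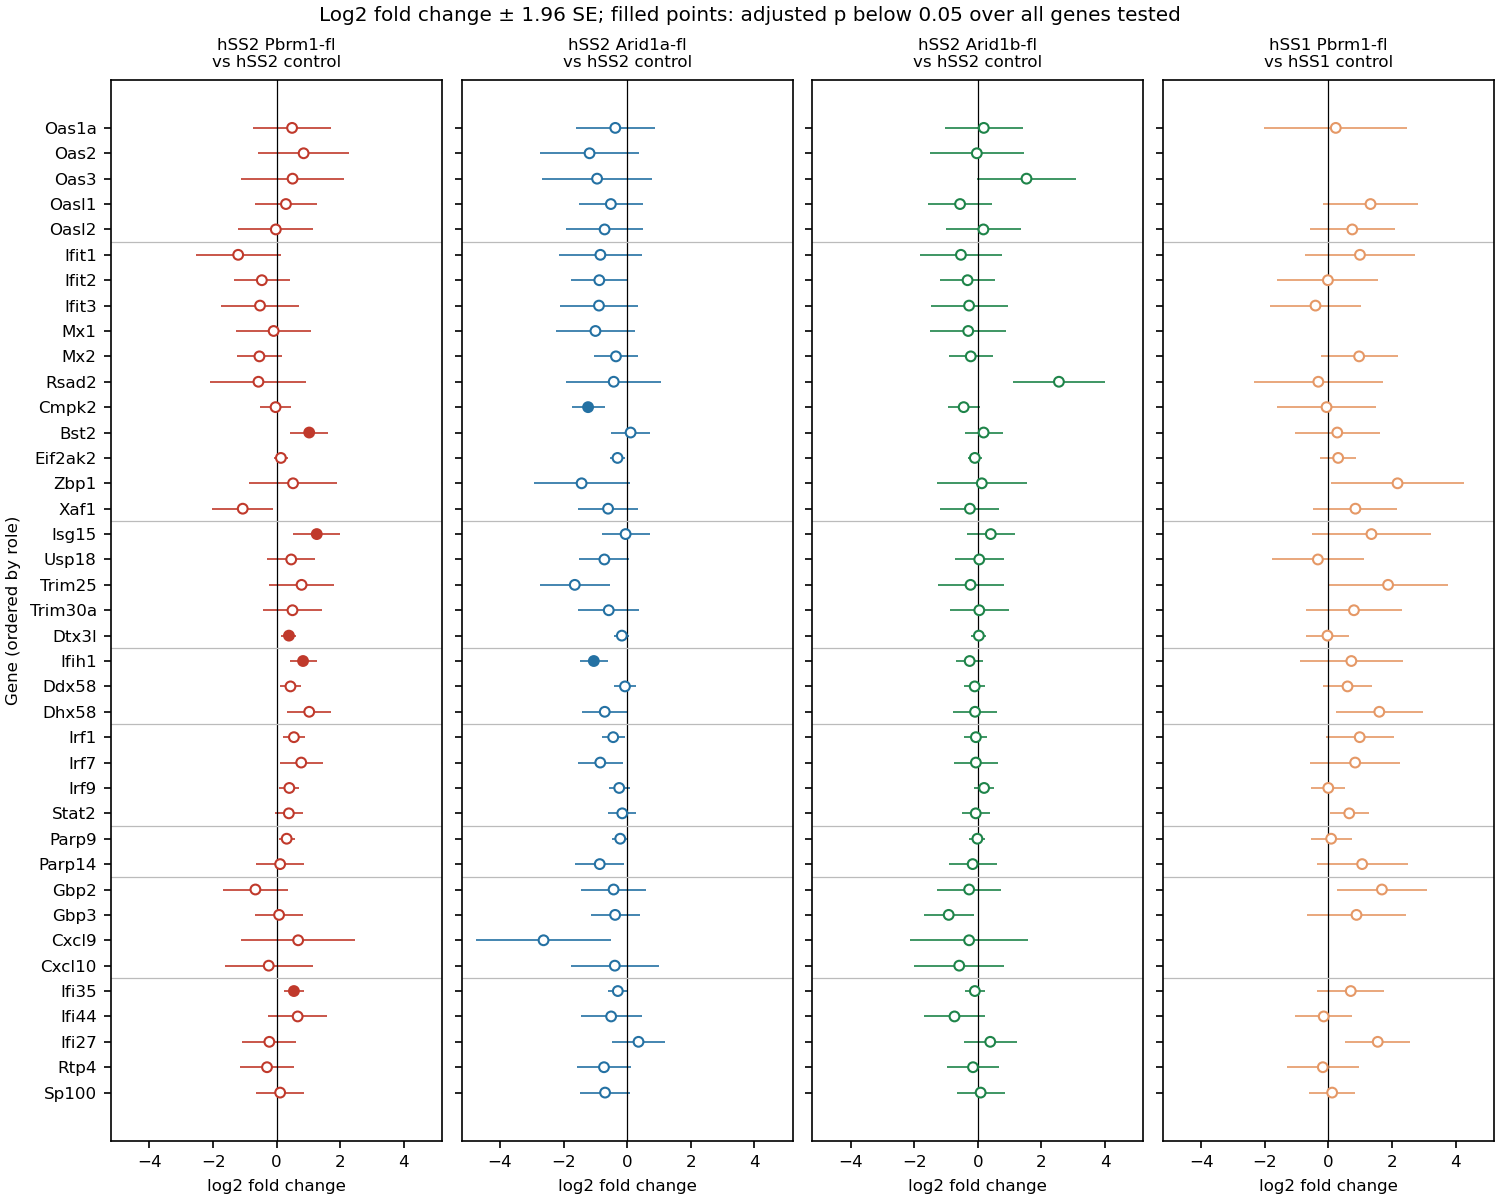
Points are log2 fold changes of the 39 genes, ordered by role, with bars of 95% intervals, for the 4 comparisons with control tumors. Filled points passed an adjusted p of 0.05. Filled points are seen for 5 genes in hSS2 Pbrm1-fl, all to the right of 0, and for 2 in Arid1a-fl, both to the left, with none in the other panels.

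In Arid1a-fl tumors 2 of the 39 genes fell and 0 rose, against 3.17% of all genes called, 1.41% higher and 1.76% lower. The 2 were Cmpk2, which encodes a mitochondrial nucleotide kinase, and again Ifih1. The median log2 fold change was -0.58, against -0.04 over all genes, and 37 of 39 values were negative, the exceptions being Bst2 (0.11) and Ifi27 (0.35). Since the genes vary together, these signs are not independent of each other. Cmpk2 (ENSMUSG00000020638, chr12:26469204-26479837) measured 3.53, 7.74 and 12.4 CPM in controls and 1.09, 3.16 and 6.46 in Arid1a-fl tumors. All 8 Arid1a-fl tumors were below the control median and 5 below every control. Its log2 fold change was -1.23 ± 0.26 (adjusted p = 0.016). Ifih1 measured 6.29, 13.5 and 21.9 CPM in Arid1a-fl tumors, again with all 8 below the control median of 28.4 and 5 below every control. Its log2 fold change was -1.05 ± 0.23 (adjusted p = 0.016). Trim25 had the largest difference outside the chemokines and did not pass (-1.65 ± 0.56, adjusted p = 0.083). Rsad2, which lies 12752 bases from Cmpk2 on the other strand and encodes the antiviral enzyme viperin, was at -0.43 ± 0.76 (adjusted p = 0.761), so that the neighbors were not called together.

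Both calls held against the 5 controls of the same mouse number range (Cmpk2 -1.38, adjusted p = 0.010, and Ifih1 -1.26, adjusted p = 0.0065), of which control replicate 9 is 1. They held as well among all controls without replicate 9 (-1.19, adjusted p = 0.026, and -1.07, adjusted p = 0.025), while the comparison within the range was not run without it. Within the range 1405 of 20083 genes were called, against 637 over all controls. With Ptprc as a covariate, where 5.26% of all genes were called, Cmpk2 was at -1.24 (adjusted p = 0.012) and Ifih1 at -1.02 (adjusted p = 0.011). With that covariate Trim25 (-1.22, adjusted p = 0.049) and Parp14 (-0.68, adjusted p = 0.045) also fell. The adjusted p of Ifih1 was 0.051 without Arid1a-fl replicate 8 and 0.050 with the 2 groups alone. Ptprc had a median of 16.4 CPM in Arid1a-fl tumors (9.06 to 38.1) and did not pass (-0.70, adjusted p = 0.485). The 5 T and NK cell markers tested had a median log2 fold change of -2.94, with 0 past the threshold, and summed 2.15 to 9.01 CPM against 0.590 to 31.2 in controls. The skeletal muscle markers had a median log2 fold change of -1.42, with 0 of 6 past the threshold. The part of these cells in the differences was not tested.

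In Arid1b-fl tumors 0 of the 39 genes passed, where 0.0548% of all genes did, 0.0249% higher and 0.0299% lower. At an unadjusted p below 0.05 there were 2 genes with edgeR, against 6.22% of all genes, and 1 with DESeq2, which also called 0. The median log2 fold change was -0.09. The genes with the smallest p in each direction were Rsad2 (2.55 ± 0.74, adjusted p = 0.404), Oas3 (1.53 ± 0.80, adjusted p = 0.801) and Irf9 (0.20 ± 0.16, adjusted p = 0.898), and Gbp3 (-0.92 ± 0.40, adjusted p = 0.767), Cmpk2 (-0.44 ± 0.25, adjusted p = 0.803) and Ifi44 (-0.73 ± 0.50, adjusted p = 0.860). The positive values of Rsad2 and Oas3 came from 1 tumor. Rsad2 was 181 CPM in Arid1b-fl replicate 5 and 1.29 to 3.61 in the other 7, and Oas3 was 16.3 CPM there and at most 1.35 in the others. Without replicate 5 Rsad2 was at -0.88 and Oas3 at -0.54. That tumor had the highest Ptprc of the group (71.6 CPM) and the highest summed neutrophil markers of the 46 tumors (89.3 CPM, against at most 17.8 in every other group). The part of these cells in the value of Rsad2 was not tested. Ptprc itself was at 0.16 (adjusted p = 0.992) in Arid1b-fl, with a median of 40.2 CPM (5.75 to 71.6).

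Because Ifih1 rose in Pbrm1-fl and fell in Arid1a-fl tumors, the 2 floxed groups were also compared directly. This comparison was added after the data had been seen, and here mouse number range and genotype cannot be told apart. Of the 39 genes 12 were higher in Pbrm1-fl and 0 lower, against 12.3% of all genes called, 6.79% higher and 5.5% lower. The median log2 difference was 0.81, against 0.02 over all genes. They were the RNA sensors Ifih1 (1.88 ± 0.25, adjusted p = 9.8e-06) and Dhx58 (1.73 ± 0.41, adjusted p = 0.0047), the factors Irf1 (0.98 ± 0.21, adjusted p = 0.0017), Irf7 (1.62 ± 0.40, adjusted p = 0.0065) and Irf9 (0.65 ± 0.18, adjusted p = 0.016), and Trim25 (2.43 ± 0.62, adjusted p = 0.0080). The others were Isg15 (1.31, adjusted p = 0.041), Dtx3l (0.56, adjusted p = 0.0060), Parp9 (0.53, adjusted p = 0.013), Cmpk2 (1.2, adjusted p = 0.0051), Eif2ak2 (0.44, adjusted p = 0.023) and Ifi35 (0.84, adjusted p = 0.0018). When single tumors were left out, Isg15 missed the threshold in 14 of 16 analyses (adjusted p up to 0.077) and Eif2ak2 in 3 (up to 0.071), and Isg15 also missed it with no filter on low counts (0.067). In the OAS and chemokine groups 0 genes passed.

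The ranges of 6 of the 39 genes did not overlap between these 2 groups, Ifih1, Dhx58, Irf9, Parp9, Dtx3l and Ifi35, against 1.95% of all genes. Ifih1 was 29.3 to 69.1 CPM in Pbrm1-fl and 6.29 to 21.9 in Arid1a-fl, and Dhx58 was 23.4 to 47.5 against 6.89 to 14.4. Ptprc was higher in Pbrm1-fl by 1.07 on the log2 scale without passing (adjusted p = 0.302), and 1 of 5 tested T and NK cell markers was called. With Ptprc as a covariate 15 of the 39 were higher and 2 lower, against 7.93% and 7.04% of all genes. The 2 were Gbp2 (-1.05, adjusted p = 0.034) and Ifi27 (-1.15, adjusted p = 0.032). When each floxed group was set against the controls of its own mouse number range, the difference between both contrasts passed for Ifih1 alone. There 436 of 20083 genes were called, so that 1 of 39 was near the share of all genes.

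In the hSS1 background 34 of the 39 genes passed the filter on low counts, and Oas2, Oas3, Mx1, Cxcl9 and Cxcl10 did not. Of the 34, 0 passed in Pbrm1-fl tumors, where 0.00562% of all genes did. At an unadjusted p below 0.05 there were 3 of them with edgeR, against 17.2% of all genes, and 2 with DESeq2. At the adjusted threshold DESeq2 also called 0 of the 34, although it called 1184 of all genes. The 3 with edgeR were Ifi27 (1.55 ± 0.52, adjusted p = 0.200), Gbp2 (1.68 ± 0.72, adjusted p = 0.277) and Dhx58 (1.6 ± 0.70, adjusted p = 0.288). On the negative side the smallest p belonged to Ifit3 (-0.41 ± 0.73, adjusted p = 0.813), Usp18 (-0.33 ± 0.74, adjusted p = 0.855), which removes ISG15 from proteins, and Ifi44 (-0.15 ± 0.46, adjusted p = 0.902). The median log2 fold change was 0.71 and was -0.33 without Pbrm1-fl replicate 3. That tumor was the highest of its group for 37 of the 39 genes and had the lowest Pbrm1 of the group (102 CPM, against 209 to 252).

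The values of replicate 3 were far from the rest. Isg15 read 5.50, 5.71, 1.37, 1.64 and 4.51 CPM in the 5 controls and 2.56, 0.905, 31.6 and 3.33 in the 4 Pbrm1-fl tumors. Ifih1 read 24.6, 16, 9, 28.7 and 16.7 CPM in controls and 19.7, 1.36, 82.1 and 22.4 in Pbrm1-fl tumors, so that the lowest and the highest of the 9 tumors were both Pbrm1-fl. Bst2 read 27.8, 15, 7.46, 7.65 and 19.1 CPM in controls and 10.4, 7.97, 50.4 and 6.11 in Pbrm1-fl tumors. Ptprc read 10.3, 11.6, 6.69, 11.4 and 21.5 CPM in controls and 13.2, 6.34, 24.1 and 6.29 in Pbrm1-fl tumors (log2 fold change 0.02, adjusted p = 0.987). Replicate 3 also had the highest Ptprc of the 9, and the part of leukocytes in its values was not tested. With 5 and 4 tumors the test recovered 5.0% of simulated log2 changes of 1 and 57% of changes of 2.

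Whether the Pbrm1-fl effect differed between the hSS1 and hSS2 backgrounds was tested over all 46 tumors as an interaction. Of the 39 genes 0 passed, against 2.86% of all genes tested (1.7% higher, 1.16% lower). At an unadjusted p below 0.05 there were 4 with edgeR, against 18.9% of all genes, and 5 with DESeq2. At the adjusted threshold DESeq2 called 0 of the 39, although it called 1195 of all genes. The smallest p for an effect more positive in hSS1 were those of Gbp2 (2.36 ± 0.95, adjusted p = 0.161), Ifi27 (1.79 ± 0.77, adjusted p = 0.194) and Mx2 (1.51 ± 0.67, adjusted p = 0.207), an MX gene annotated as a polymorphic pseudogene. For an effect more positive in hSS2 they were those of Dtx3l (-0.42 ± 0.28, adjusted p = 0.423), Irf9 (-0.40 ± 0.31, adjusted p = 0.503) and Bst2 (-0.74 ± 0.64, adjusted p = 0.552). Ifih1 was at -0.11 with a 95% interval of -1.26 to 1.04. Without hSS2 Pbrm1-fl replicate 1, Ifit1 (3.64) and Gbp2 (3.16) passed, and with Ptprc as a covariate Gbp2 (2.78, adjusted p = 0.0073) and Xaf1 (2.29, adjusted p = 0.041) did, where 4.83% of all genes were called. Over the analyses with 1 tumor left out, 235 to 876 of all genes were called for the interaction. For Ptprc the interaction was -0.34 (adjusted p = 0.886), and for Pbrm1 itself it was 0.51 ± 0.19 (adjusted p = 0.125).

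Leukocyte content was followed through Ptprc. The slope of each gene was estimated within genotype groups, as the log2 change in level per doubling of Ptprc. In hSS2 31 of the 39 genes rose with Ptprc and 0 fell, against 29.2% of all genes called, 15.4% higher and 13.8% lower. All 39 slopes were positive, with a median of 0.44, against -0.02 over all genes. The smallest p belonged to Oas2 (1.19 ± 0.09, adjusted p = 3.4e-13), Sp100 (0.56 ± 0.05, adjusted p = 1.1e-11), a nuclear body protein, Trim30a (0.68 ± 0.06, adjusted p = 1.1e-10), Cxcl9 (1.58 ± 0.16, adjusted p = 1.1e-09), Parp14 (0.53 ± 0.05, adjusted p = 1.6e-09) and Zbp1 (1.08 ± 0.11, adjusted p = 1.7e-09), a sensor of Z-form nucleic acid. By role 5 of 5 OAS genes, 4 of 4 guanylate-binding and chemokine genes, 4 of 4 transcription factors, 2 of 2 ADP-ribosylation genes, 8 of 11 effectors, 4 of 5 genes of the ISG15 group and 4 of 5 others passed, and 0 of 3 RNA sensors.

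The 8 genes that did not pass were Cmpk2 (0.04), Eif2ak2 (0.04), Ifi35 (0.06), Ddx58 (0.08), Dhx58 (0.13), Ifih1 (0.13, adjusted p = 0.072), Isg15 (0.22, adjusted p = 0.083) and Rsad2 (0.50, adjusted p = 0.068). Of the genes named above for a genotype difference, Bst2 (0.29 ± 0.07, adjusted p = 0.0016) and Dtx3l (0.14 ± 0.02, adjusted p = 9.8e-06) rose with Ptprc, with slopes below the median of the 39. Ifit1 (0.62 ± 0.13) and Xaf1 (0.48 ± 0.10) lay above it. The slopes were thus unequal within the list, from 0.04 to 1.58. Skeletal muscle markers also rose with Ptprc, 6 of 6 with a median slope of 1.91, while the tumor marker Sox2 fell (-0.42, adjusted p = 0.011) and Tle1 was at -0.01 (adjusted p = 0.843). The part of muscle in these slopes was not tested. When 4 other leukocyte genes took the place of Ptprc, 31 genes rose, of which 30 were shared. Over all alternatives for this slope 4919 to 6797 of all genes were called.

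**Figure D4:**
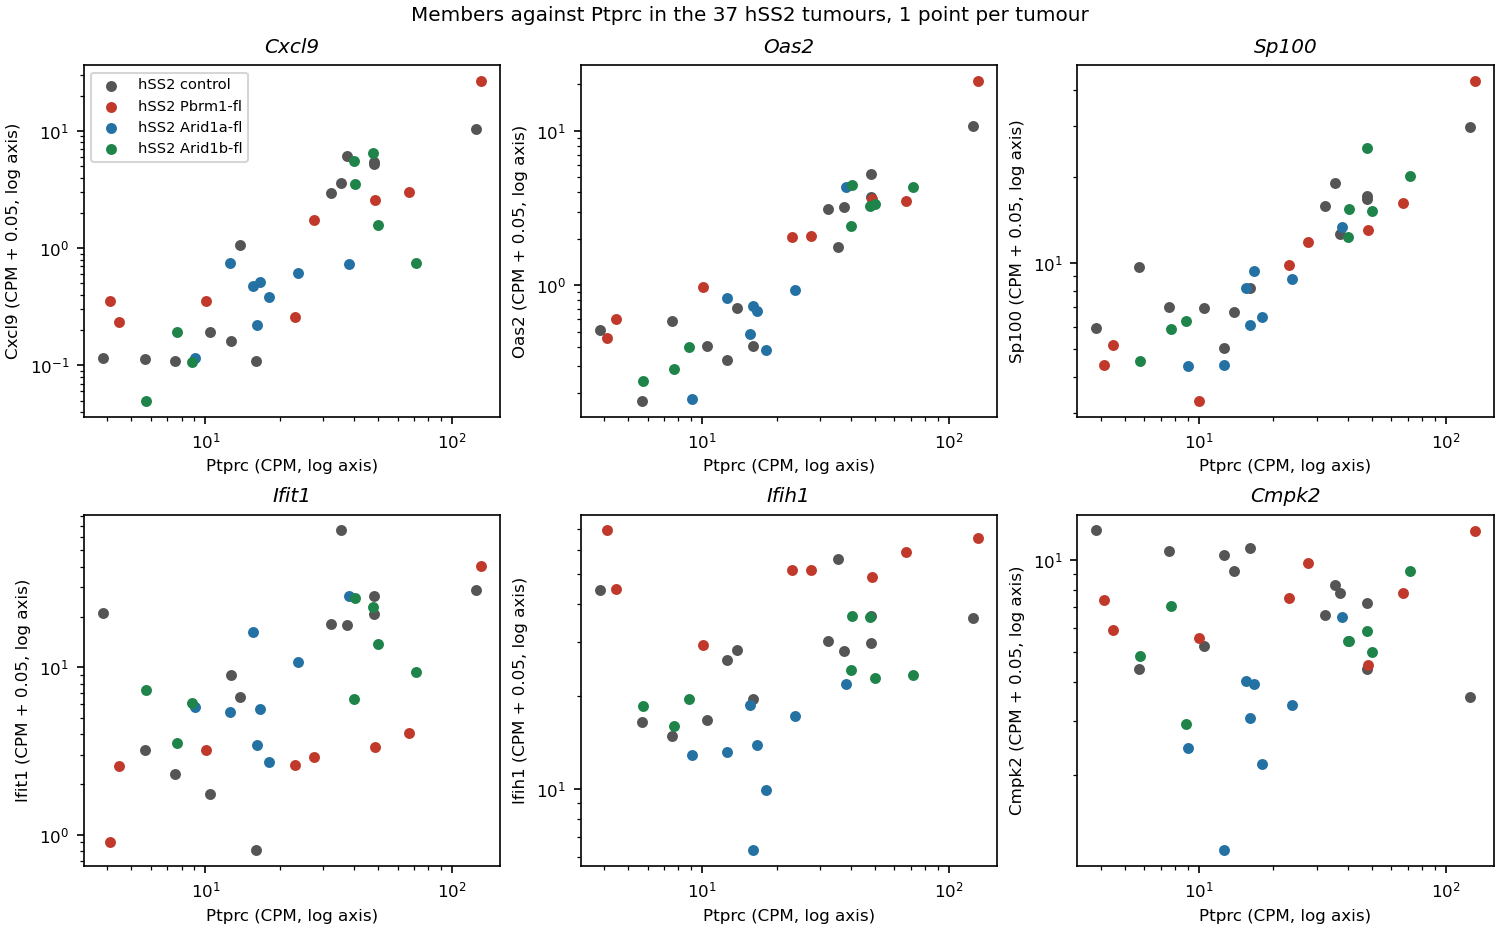
Points are the 37 hSS2 tumors, colored by genotype, with the level of 6 genes (CPM + 0.05) against Ptprc (CPM), both on log axes. Cxcl9, Oas2 and Sp100 rise along Ptprc (slopes 1.58, 1.19 and 0.56). The slopes of Cmpk2 (0.04) and Ifih1 (0.13) did not pass, with r of 0.07 and 0.43 with Ptprc within groups. Both show the Arid1a-fl tumors low, at 1.09 to 6.46 and 6.29 to 21.9 CPM.

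In hSS1 0 of 34 genes passed and 0.0% of all genes did. All 34 slopes were positive, with a median of 1.00, and 19 had an unadjusted p below 0.05, against 9.69% of all genes. DESeq2, by contrast, called 10 of the 34, and 462 of all 17785 genes. The smallest p belonged to Irf1 (1.03 ± 0.18, adjusted p = 0.227), Gbp3 (1.51 ± 0.30, adjusted p = 0.250) and Rsad2 (1.92 ± 0.39, adjusted p = 0.253). Pbrm1-fl replicate 3 held the highest Ptprc, and without it the median slope was 0.48.

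**Figure D5:**
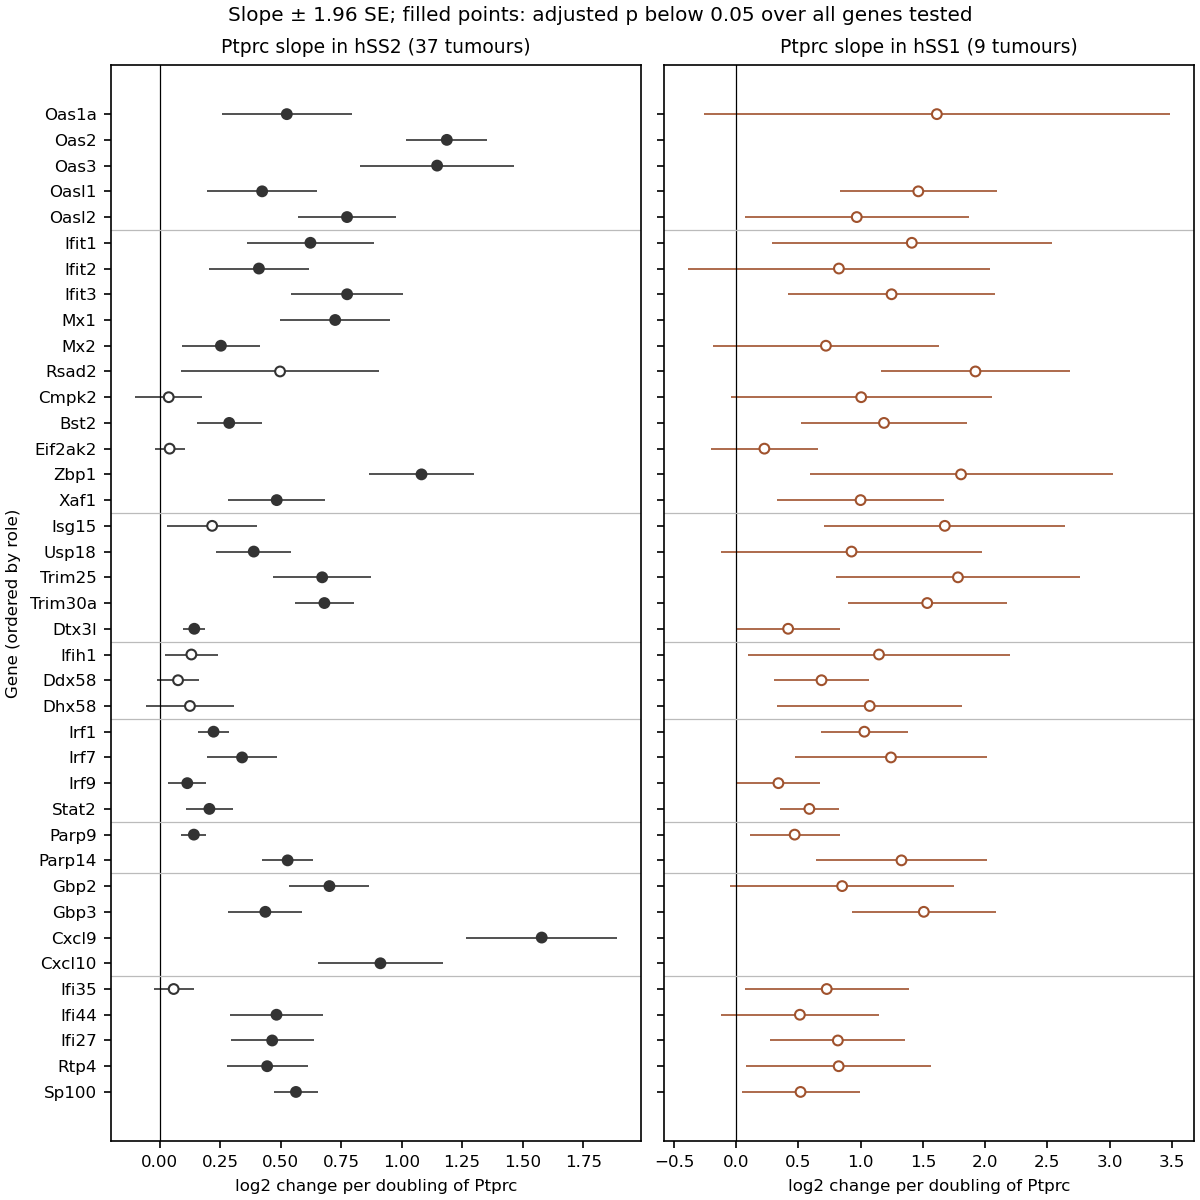
Points are the slopes of the 39 genes on Ptprc (log2 change per doubling, bars of 95% intervals) within genotype groups, in 37 hSS2 tumors on the left and 9 hSS1 tumors on the right. Filled points passed an adjusted p of 0.05, 31 on the left and 0 on the right, and every point lies to the right of 0.

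The rest of the interferon pathway was read from a list of 37 genes, of which 28 passed the filter on low counts. The 8 interferon ligands were nearly absent. Ifng, the highest, reached 0.389 CPM and was above 0 in 8 of 37 hSS2 libraries, Ifnb1 was above 0 in 3, and Ifnl2 and Ifnl3 were at 0 in every library. In hSS2 Pbrm1-fl tumors 4 of the 28 rose and 0 fell, against 3.4% of all genes higher and 3.95% lower. These were Tyk2, the kinase at the type I receptor (0.40 ± 0.09, adjusted p = 0.0069), the transcription factor Irf3 (0.32 ± 0.10, adjusted p = 0.041), the endosomal RNA sensor Tlr3 (0.69 ± 0.21, adjusted p = 0.037) and Socs1, a feedback inhibitor of JAK kinases (0.75 ± 0.20, adjusted p = 0.020). Tyk2 was 62.4 to 90.1 CPM in Pbrm1-fl and 45.7 to 77.1 in controls, and Tlr3 was 11.6 to 50.6 against 13.8 to 40.2, so that both overlapped. Of the receptors 0 of 6 passed. Against controls of the same mouse number range 0 of the 4 were called. Leaving out hSS2 control replicate 9 took Tlr3 (adjusted p = 0.057) and Irf3 (0.077) out of the called genes.

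In Arid1a-fl tumors 1 of the 28 fell, where 3.17% of all genes were called and 1.76% were lower, so that the share was near that of all genes. It was Adar, which edits double-stranded RNA and limits its sensing by MDA5 (-0.46 ± 0.11, adjusted p = 0.024). Its call was lost in 3 of 21 analyses with 1 tumor left out, those without Arid1a-fl replicate 2, 7 or 8 (adjusted p up to 0.080). Its level was 63.9 to 88.5 CPM in Arid1a-fl, 79.4 to 128 in controls and 101 to 164 in Pbrm1-fl. Between Pbrm1-fl and Arid1a-fl 5 of 28 were higher in Pbrm1-fl, against 6.79% of all genes. They were Adar (0.75, adjusted p = 9.7e-05), Tlr3 (1.24, adjusted p = 9.1e-04), Socs1 (0.96, adjusted p = 0.0059), Tyk2 (0.42, adjusted p = 0.0065) and Samhd1 (0.64, adjusted p = 0.0075). In Arid1b-fl and hSS1 Pbrm1-fl tumors and for the interaction 0 of 28 passed. Against Ptprc in hSS2 16 of 28 rose and 0 fell, where 29.2% of all genes were called and 15.4% rose, with the smallest p for the myeloid and lymphoid factors Irf5 (0.81) and Irf8 (0.90), the sensors Tlr7 (0.76) and Tmem173 (0.54), which encodes STING, Socs3 (0.63) and Il10rb (0.26).

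Of the 39 genes 19 lie in 8 clusters with gaps of at most 200 kb. These include Rsad2 with Cmpk2 on chromosome 12, Ifit2 with Ifit3 and Ifit1 on chromosome 19, Oas2 with Oas3 and Oas1a on chromosome 5, and Parp14 with Dtx3l and Parp9 on chromosome 16. Against Ptprc in hSS2 the partners within each of the 8 clusters were called alike, all of them in 7 clusters and neither of Rsad2 and Cmpk2. Dtx3l rose in hSS2 Pbrm1-fl while Parp9 (0.31, adjusted p = 0.133) and Parp14 (0.11, adjusted p = 0.898) did not pass, and Cmpk2 fell in Arid1a-fl without Rsad2. Differences between partners were not tested. Ifit3, Oas1a, Trim30a, Gbp2 and Gbp3 have close paralogs in the mouse genome, and their levels are uncertain because the rule for reads that match several places was not stated. In hSS2 Pbrm1-fl 3 of 15 genes with ISRE letters and 2 of 14 without were called, and against Ptprc 10 of 15 and 12 of 14, which are descriptions with no test.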

How the data were processed

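RNA sequencing was performed on whole fresh-frozen tumors, 1 library each, with ribosomal RNA depletion and stranded preparation. The authors aligned reads with STAR 2.7.11 to mm10 and counted them with featureCounts 1.6.3, and the deposited values are raw read counts per Ensembl gene in 1 table per background. Annotation release, strand setting and treatment of multi-mapping reads were not given in the sources used here. Whole-number counts with unequal totals were checked in both tables.

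Counts were analyzed with edgeR 4.0.16 (R 4.3.3). The steps were filterByExpr on group, TMM scaling, robust quasi-likelihood fits and two-sided F-tests, with Benjamini-Hochberg adjustment over all genes of the comparison and a threshold of 0.05. Dispersion was estimated over the 37 libraries of hSS2 together and separately over the 9 of hSS1, while the interaction used all 46. The Ptprc slope added log2 CPM of Ptprc (prior count 2) to group. Levels are TMM-scaled CPM, scaled separately per table, and RPKM divide these by exon length. Alternatives were RLE size factors, no filter, DESeq2 1.42.0, Ptprc as covariate, controls of 1 mouse number range, the 2 groups alone, other leukocyte genes, and leaving out each tumor. On simulated counts for hSS2 Pbrm1-fl against control, over 20083 genes, 56% of log2 changes of 1 and 83% of changes of 2 were recovered.

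Groups came from the titles, and replicates were numbered in accession order. Within groups, pairs of libraries differed by a chi-square per degree of freedom of 18.6 to 264, so none was a duplicate. Symbols and positions came from GENCODE M21 (GRCm38), promoters from RefSeq (GRCm38.p6). The members, lists and tests were chosen with earlier results of these data known. Named were members past the threshold, or the 6 of smallest adjusted p in each direction where over 12 passed, or the 3 of smallest p in each direction where fewer than 3 passed, with Ptprc, the targeted gene, called pathway genes and levels of 10 genes. Xaf1 and the genes near the threshold were named after their values were seen. Counting error is small against the spread between tumors except in genes with few reads, and p-values measure the spread between tumors.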

Additional observations from a re-analysis of the deposited data

Results flagged for a closer look

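Within each group of 4 to 10 tumors, the highest or lowest tumor was compared with the rest by Dixon's criterion for the 10 genes described in all groups and the named genes. Of 85 group and gene combinations 23 had a tumor far from the others. Chance gives about 1 in 20 where values are normally distributed. The criterion was applied to CPM without a log transformation, so the number that chance would give here is not known. Because the genes vary together, most of the 23 come from a few tumors.

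In hSS2 Pbrm1-fl replicate 1 the highest values stood apart for Ifit1 (40.5 CPM), Irf7 (67.0), Oasl2 (158), Cxcl10 (6.62), Gbp2 (47.2), Dtx3l (104), Rsad2 (7.30) and Oas3 (5.55). In hSS1 Pbrm1-fl replicate 3 they stood apart for Isg15 (31.6 CPM), Irf7 (39.4), Stat2 (113), Cxcl10 (1.43), Irf1 (105), Bst2 (50.4), Trim25 (79.8) and Cmpk2 (21.6). Both tumors had the highest Ptprc of their groups, 131 and 24.1 CPM.

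In hSS2 Arid1a-fl replicate 3, which had the highest Ptprc of its group (38.1 CPM), Cxcl10 (3.68 CPM), Gbp2 (34.1) and Oas3 (2.04) stood apart, and in replicate 8 Stat2 did (95.3 CPM). In hSS2 Arid1b-fl replicate 5 Rsad2 (181 CPM) and Oas3 (16.3) stood apart, and in hSS1 control replicate 5 Rsad2 did (13 CPM, against at most 3.62 in the other 4). The part of leukocytes in these values was not tested.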

How the results depend on the processing

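The number of the 39 genes called in hSS2 Pbrm1-fl was 5, and it was 1 with no filter, 11 with Ptprc as a covariate, 1 with controls of the same mouse number range and 1 with the 2 groups alone. It ranged from 1 to 6 when single tumors were left out, being 1 without control replicate 9, 2 without Pbrm1-fl replicate 2 or 3 or control replicate 2 or 3, and 3 without Pbrm1-fl replicate 4 or 8. In Arid1a-fl it was 2, and 4 with DESeq2, 4 with the Ptprc covariate, 1 with the 2 groups alone and 1 to 2 with single tumors left out (1 without Arid1a-fl replicate 8). Between Pbrm1-fl and Arid1a-fl it was 12, and 10 to 16 with single tumors left out. It was 1 for the difference between both contrasts, each against controls of its own number range. The interaction gave 0, 2 with the covariate and 0 to 2 with single tumors left out (2 without hSS2 Pbrm1-fl replicate 1), and the hSS1 slope gave 0, and 10 with DESeq2. Fewer tumors entered the 2-group analyses. Within ranges all tumors stayed in the fit, but fewer controls entered each contrast with controls. Otherwise the cause was not tested. RLE size factors moved none of these counts by over 1.5 times. The counts over all genes moved too, as given below. With DESeq2 they rose from 637 to 1696 in Arid1a-fl and from 0 to 462 for the hSS1 slope. In Pbrm1-fl they fell from 1476 to 477 within the number range.

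Directions turned with controls of the same range for Ptprc in Pbrm1-fl (-0.012), Irf9 (-0.17) and Ptprc (-0.066) in Arid1b-fl, and Ifit3 (0.017), Usp18 (0.81), Ifi44 (0.016) and Ptprc (-0.080) in hSS1, and with DESeq2 for Rsad2 in Arid1b-fl (-0.85). Leaving out single tumors gave ranges of -0.21 to 0.80 for Ptprc in hSS2 Pbrm1-fl, -0.033 to 0.25 for Bst2 in Arid1a-fl, and in Arid1b-fl -0.88 to 2.87 for Rsad2, -0.54 to 1.72 for Oas3 and -0.10 to 0.59 for Ptprc. In hSS1 the ranges were -1.18 to 0.33 for Usp18, -0.41 to 0.17 for Ifi44 and -0.50 to 0.32 for Ptprc, and for the Ptprc interaction -0.88 to 0.23. None of these had passed.

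Over all genes, calls numbered 1476 in Pbrm1-fl, with 2262 under the covariate and 477 within range. The counts with no filter and with the 2 groups alone lay between 477 and 2262, and leaving out single tumors gave 1044 to 1920. In Arid1a-fl calls numbered 637, with 243 unfiltered, 1696 with DESeq2, 1057 under the covariate, 1405 within range, 159 with 2 groups and 56 (without replicate 8) to 1416 (without replicate 6) with single tumors left out. In Arid1b-fl the 11 calls became 27, 6, 0 and 3 (no filter, covariate, range, 2 groups). The direct comparison of Pbrm1-fl with Arid1a-fl had 2468, and the difference between both within-range contrasts had 436. The 1 hSS1 call became 1184, 6 and 0 (DESeq2, covariate, range), and the 622 of the interaction 402, 1195, 1049 and 9 (no filter, DESeq2, covariate, range). The hSS1 slope had 462 with DESeq2 in place of 0.

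The paper states that littermates served as controls. The labels name no litters and give no replicate numbers that pair tumors across groups, so no paired analysis was run.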
